A study of Homo sapiens with 12 samples.

Results

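Entinostat was added to dabrafenib plus trametinib in A2058, an established human melanoma cell line, and the cells were compared with cells that received dabrafenib plus trametinib without it. The comparison rests on 6 of the 12 arrays of the series, chosen by their treatment labels. The 3 arrays abbreviated DT came from cells given dabrafenib at 100 nM and trametinib at 10 nM, and the 3 abbreviated DTE came from cells given the same doses together with entinostat at 1 µM. The other 6 arrays, 3 from cells given the solvent DMSO and 3 from cells given entinostat alone (E, 1 µM), served to set the spread and to show what entinostat did without the kinase inhibitors. RNA was taken after 24 h in all 4 groups, and all came from the same single cell line. The titles name the replicates biological and the design text names them technical, so the p-values reflect the spread among these arrays alone, and that spread may be technical.

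Dabrafenib blocks the mutant BRAF kinase and trametinib blocks MEK, the kinase below it, so that together they silence ERK signalling, on which BRAF-mutant melanoma cells depend for growth. Melanoma cells under such treatment often turn up the melanocyte programme governed by the transcription factor MITF, or move to a less differentiated state in which they tolerate the drugs. Entinostat is a benzamide that inhibits class I histone deacetylases, enzymes that remove acetyl groups from histone tails and act within corepressor complexes at silenced genes.

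The arrays carried the lineage of their label. TYR, PMEL and SOX10, which mark melanocytic cells, stood between 8.13 and 9.94 on the log2 intensity scale on all 6 DT and DTE arrays. These genes stood above the average of the 11 measured markers of the line. That average was 7.582 to 7.778 on the DT arrays and 7.125 to 7.223 on the DTE arrays. MLANA, of the same list, was far dimmer, with levels given below. In what follows a level is a log2 intensity, a change is the difference of 2 such levels with its standard error (SE) from the limma fit, and a gene was called at a Benjamini-Hochberg adjusted p under 0.05 over all 14580 genes. Levels below the lower quartile of genes (2.91 in DT and 2.99 in DTE) may lie in the background of the array, so a change measured from such a level is of uncertain size.

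Entinostat raised more genes than it lowered on top of dabrafenib plus trametinib, and by larger steps. Of the 14580 genes, 2014 were called higher in DTE than in DT (13.8% of all genes) and 742 were called lower (5.09%). With at least a 2-fold change, 399 were higher (2.74%) and 37 were lower (0.254%). All 3 DTE arrays lay above all 3 DT arrays for 3074 genes (21.1%) and below them for 1544 (10.6%). The excess of rises among the calls depended on the scale. The array medians averaged 4.66 ± 0.0448 (SD, n = 3) in DTE and 4.48 ± 0.106 in DT, a difference of 0.175 (two-sided exact permutation p = 0.1, the smallest that 3 against 3 allows). After quantile normalization 1786 genes were higher and 1752 lower (12.2% and 12%), and lower calls made up 49.5% of all calls in place of 26.9%. With each array centred on its median there were 1364 higher (9.36%) and 2245 lower (15.4%), 62.2% of the calls being lower. The median change over all genes was 0.06 as deposited, -0.03 after quantile normalization and -0.11 after centring. At a 2-fold change rises outnumbered falls on each of these scales, by 301 (2.06%) to 74 (0.508%) after quantile normalization and by 252 (1.73%) to 89 (0.61%) after centring. Without DT replicate 2, 473 genes were called lower in place of 742.

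The largest rise was in ANKRD1, a nuclear ankyrin-repeat protein and a standard target gene of the YAP coactivator. It stood at 2.92, 3.18 and 3.38 on the DT arrays and at 6.71, 6.83 and 7.13 on the DTE arrays. The groups lay far apart, with a rise of 3.73 (SE 0.15, limma adjusted p = 2.46e-11), or 13.2-fold. LRP2, the large endocytic receptor megalin, went from 2.64, 2.54 and 2.53 to 5.77, 5.66 and 5.75, a rise of 3.16 (SE 0.11, adjusted p = 4.42e-12). Its DT levels were below the lower quartile of genes, so the fold is uncertain. COLEC12, a scavenger receptor of the collectin family, went from 3.42, 3.24 and 3.15 to 5.98, 6.30 and 6.45, a rise of 2.98 (SE 0.18, adjusted p = 2.62e-09). The 250 bases before the RefSeq start of these 3 genes (build GRCh38.p14, each given 5′ to 3′ on the strand of its gene) are shown because they are the regions nearest to where transcription of the most strongly raised genes begins. They lie at chr10:90921088-90921337 for ANKRD1, chr2:169362535-169362784 for LRP2 and chr18:500702-500951 for COLEC12, all on the minus strand. Capitals mark TGANTCA, a loose form of the AP-1 site that allows any middle base, in ANKRD1 and GGGCGG, the GC box, in the others. The middle base in ANKRD1 is T, where the AP-1 site itself has G or C.
ANKRD1: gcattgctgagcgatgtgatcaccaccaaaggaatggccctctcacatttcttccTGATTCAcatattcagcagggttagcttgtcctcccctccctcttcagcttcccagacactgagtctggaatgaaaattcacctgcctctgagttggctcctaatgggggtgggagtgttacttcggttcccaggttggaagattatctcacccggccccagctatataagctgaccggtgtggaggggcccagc
LRP2: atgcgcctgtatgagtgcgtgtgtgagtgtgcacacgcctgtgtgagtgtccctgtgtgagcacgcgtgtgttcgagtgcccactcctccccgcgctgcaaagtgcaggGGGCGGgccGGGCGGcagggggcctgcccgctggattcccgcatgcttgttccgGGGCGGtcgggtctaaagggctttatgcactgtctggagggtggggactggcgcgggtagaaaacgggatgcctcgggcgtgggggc
COLEC12: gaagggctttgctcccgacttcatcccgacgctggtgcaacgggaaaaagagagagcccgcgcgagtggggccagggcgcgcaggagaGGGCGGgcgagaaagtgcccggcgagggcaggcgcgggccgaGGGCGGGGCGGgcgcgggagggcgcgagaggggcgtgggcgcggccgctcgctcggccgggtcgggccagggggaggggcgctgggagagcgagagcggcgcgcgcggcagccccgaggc

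The 3 promoters differ in composition: 53.2% of the bases are G or C in ANKRD1, 66.8% in LRP2 and 78.4% in COLEC12. The TGANTCA match of ANKRD1 begins 195 bases before the start. LRP2 holds 3 GC boxes and so does COLEC12, where the pair nearer to the start overlaps by a base. Both strands were searched, and 9551 of the 11718 protein-coding genes tested had a promoter in the RefSeq table. GGGCGG was in 60.3% of all these promoters, in 69.4% of those of genes called higher and in 66.4% of those of genes called lower. TGANTCA was in 4.76% of all, 3.74% of the higher and 5% of the lower. TATAAA was in 7.92%, 7.28% and 5.69%, and TGACGTCA, the cyclic AMP response element, in 2.44%, 2.76% and 2.07%. The median share of G or C was 63.2% in all, 66.4% in the higher and 65% in the lower. These shares are descriptions, and a match is no evidence that a factor binds.

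Secreted and cytoskeletal proteins were among the other genes of the 15 largest rises. BMP6, a bone morphogenetic protein, stood at 3.87, 4.50 and 4.09 in DT and at 6.58, 7.05 and 7.09 in DTE (change 2.75, SE 0.23, adjusted p = 1.61e-07). DKK1, a secreted inhibitor of Wnt signalling, stood at 5.44, 5.75 and 6.04 in DT and at 8.11, 8.09 and 8.19 in DTE (2.38, SE 0.15, adjusted p = 3.22e-09). A2M, the protease inhibitor alpha-2-macroglobulin, went from 5.62, 5.80 and 5.65 to 7.94, 8.32 and 8.20 (2.47, SE 0.14, adjusted p = 1.64e-09). All 3 DTE arrays were well above all 3 DT arrays in each of these genes. IL24, a cytokine of the interleukin-10 family, rose by 2.48 and NDNF, a neurotrophic secreted factor, by 2.34. CXCL8, the neutrophil chemokine interleukin-8, rose by 2.30 from a DT mean of 2.86. The cytoskeletal members were KIF5C, a neuronal kinesin heavy chain, which went from 3.43, 3.43 and 3.48 to 6.31, 6.26 and 6.42 (2.88, SE 0.13, adjusted p = 6.93e-11), and MAP2, a dendritic microtubule protein, which rose by 2.67. The remaining 4 genes were CREB3L3, a membrane-bound transcription factor (2.92), RGCC, a cell cycle regulator (2.95), EXPH5, a RAB27-binding protein (2.36), and RGS9, a regulator of G-protein signalling (2.25). The DT means of RGCC (2.53) and EXPH5 (2.65) were below the lower quartile as well.

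**Figure D1:**
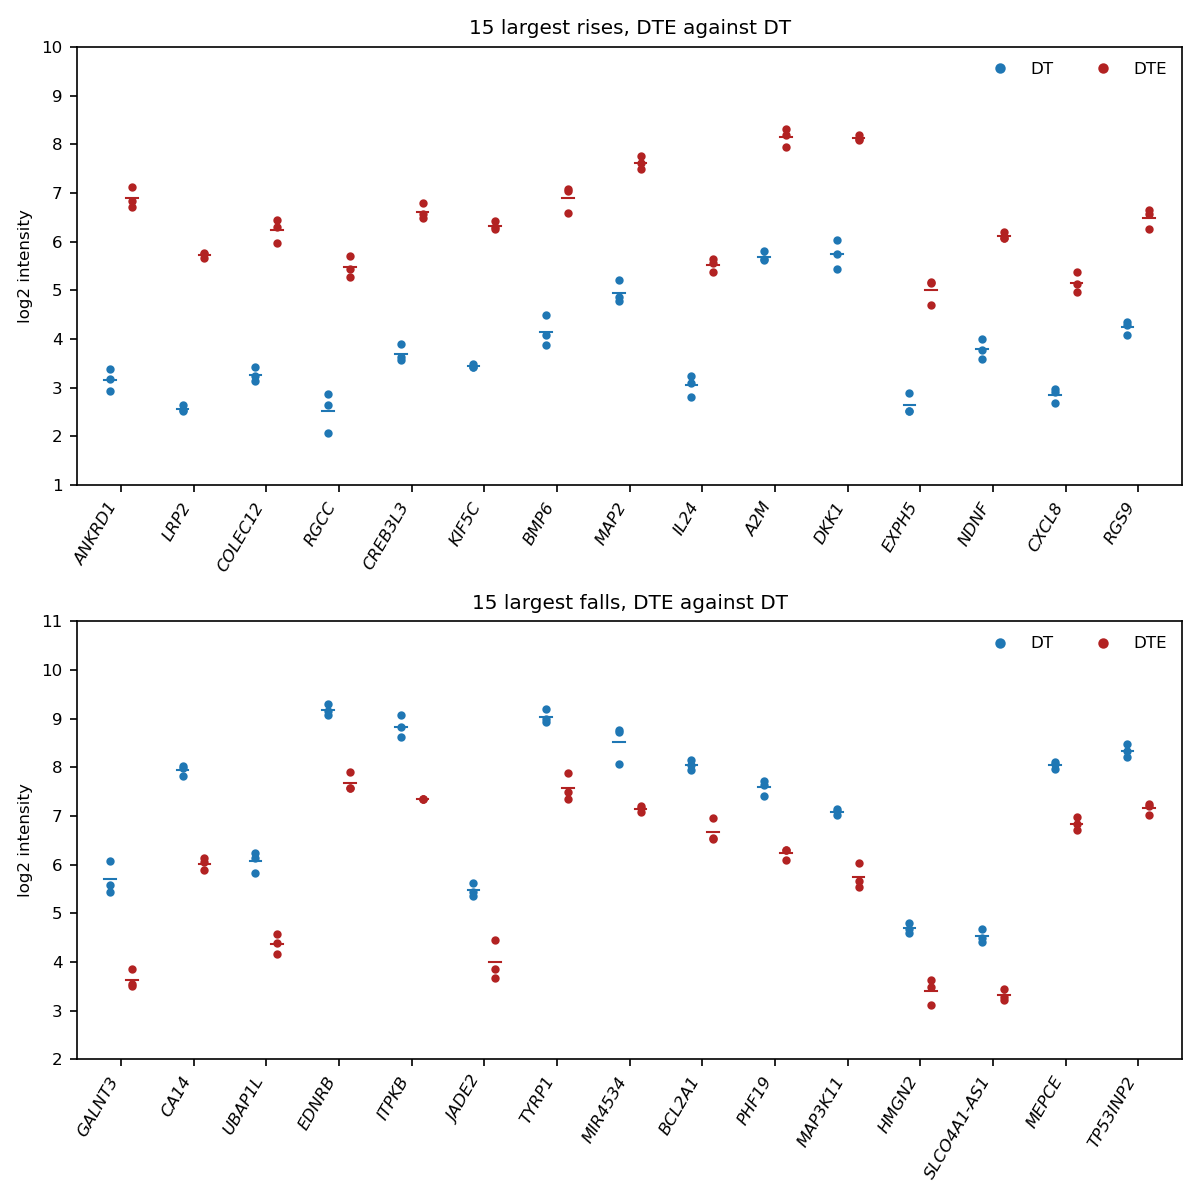
Log2 intensity of each array for the 15 largest rises (upper panel) and the 15 largest falls (lower panel) in DTE (red) against DT (blue), with 3 arrays per group as points and group means as bars. The points of the 2 groups do not overlap in any of the 30 genes and the higher group reaches at least the median level, both of which the choice of genes requires.

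The falls were smaller. GALNT3, an enzyme that begins O-linked glycosylation, stood at 5.58, 6.08 and 5.45 in DT and at 3.50, 3.55 and 3.86 in DTE, and fell by 2.07 on the log2 scale (SE 0.19, adjusted p = 5.23e-07), or 4.19-fold. CA14, a membrane carbonic anhydrase found in pigment cells, fell from 7.82, 8.04 and 7.98 to 6.05, 5.88 and 6.13 (change -1.93, SE 0.15, adjusted p = 5.85e-08). EDNRB, the endothelin receptor of the melanocyte lineage, stood at 9.07, 9.29 and 9.16 in DT and at 7.57, 7.57 and 7.91 in DTE (-1.49, SE 0.13, adjusted p = 1.67e-07). TYRP1, an enzyme of melanin synthesis, fell by 1.46 and BCL2A1, an antiapoptotic BCL2 relative, by 1.36. So 4 of the 15 largest falls (CA14, EDNRB, TYRP1 and BCL2A1) belonged to the melanocyte differentiation list. That list, like all the gene lists here, was chosen with earlier results of these data known. ITPKB, an inositol trisphosphate kinase, fell by 1.48, MAP3K11, a mixed-lineage kinase, by 1.35 and TP53INP2, an autophagy factor, by 1.18. Nuclear proteins made up another share: JADE2 (-1.48), a chromatin-associated PHD finger protein, PHF19 (-1.36), a Polycomb accessory protein, HMGN2 (-1.28), a nucleosome-binding protein with many near-identical gene copies that the probe set may also detect, and MEPCE (-1.20), the methylase that caps 7SK RNA. UBAP1L (-1.69), the antisense transcript SLCO4A1-AS1 (-1.21) and the microRNA locus MIR4534 (-1.37) completed the 15.

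Most measured genes of the melanocyte differentiation list fell. Of 17 measured members 13 were called lower, against 5.09% of all genes, and 1 was called higher. Because the lists were chosen with earlier results known, such counts beside the shares of all genes are descriptions and not tests. The median change of the list was -0.68, beside 0.06 for all genes, and after quantile normalization 14 were lower with a median of -0.72. The count of lower calls was 11 without DT replicate 2 and 11 without DTE replicate 3. MITF, the master regulator of the lineage, stood at 7.62, 7.95 and 7.62 in DT and at 6.83, 6.97 and 7.27 in DTE, a change of -0.71 (SE 0.15, adjusted p = 0.00214). SOX10, the neural crest factor that acts above MITF, stood at 8.66, 8.85 and 8.75 against 8.48, 8.40 and 8.13 (-0.42, SE 0.12, adjusted p = 0.02). The SOX10 groups did not overlap, but its call was lost without DT replicate 2, without DT replicate 3 and without DTE replicate 3. PAX3, another regulator of the lineage, was not called, with -0.27 (SE 0.13, adjusted p = 0.189), though it was called after quantile normalization with -0.38 (adjusted p = 0.0093).

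Among the pigment genes, TYRP1 stood at 8.93, 9.19 and 8.99 in DT and at 7.49, 7.34 and 7.89 in DTE (SE 0.14, adjusted p = 5.53e-07). TYR, the tyrosinase that limits the rate at which melanin is made, stood at 9.01, 9.30 and 9.05 in DT and at 8.23, 8.37 and 8.72 in DTE (change -0.68, SE 0.13, adjusted p = 0.00115). PMEL, the fibril protein of melanosomes, went from 9.76, 9.93 and 9.94 to 9.34, 9.23 and 9.19 (-0.62, SE 0.12, adjusted p = 0.000717). In all of these the DTE arrays were lower than every DT array. MLANA, the melanoma antigen Melan-A, fell by 1.13, OCA2, a melanosomal transporter, by 0.69, GPNMB, a melanosomal glycoprotein, by 0.55 and MC1R, the melanocortin receptor, by 0.54. The MC1R call was lost without DT replicate 1, without DT replicate 2 and without DTE replicate 3. SNAI2, a transcription factor of the melanocyte lineage as well as of migration, fell by 0.83 from 10.88, 10.99 and 10.94 to 10.03, 9.95 and 10.33. The member that rose was KIT, the stem cell factor receptor of melanoblasts (0.82, SE 0.13, adjusted p = 0.000127). GPR143, a melanosomal receptor, stood at 0.36 and MREG, a melanosome transport protein, at 0.19, neither of them called.

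The 250 bases before the start of TYRP1, chosen after its values were seen, are shown because the pigment genes moved together and MITF is known to bind CATGTG. They lie at chr9:12693135-12693384 on the plus strand (RefSeq, GRCh38.p14), and the capitals mark CATGTG, written CACATG where it lies on the other strand.
TYRP1: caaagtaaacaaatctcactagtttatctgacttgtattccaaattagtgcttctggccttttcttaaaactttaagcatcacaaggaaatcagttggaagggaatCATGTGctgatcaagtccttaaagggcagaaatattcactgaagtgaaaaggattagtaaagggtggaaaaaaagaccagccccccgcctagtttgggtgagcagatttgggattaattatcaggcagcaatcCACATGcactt

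TYRP1 holds CATGTG 144 and 11 bases before the start. This motif was in 6.48% of all promoters, in 5.25% of those of genes called higher and in 8.62% of those called lower, and CACGTG, the other E-box that MITF is known to bind, in 8.01%, 6.76% and 12.1%. These shares are descriptions, and whether MITF had a part in the falls was not tested. The levels in all 4 treatments put these falls beside the control, with the reminder that DT against DMSO uses the same DT arrays. The mean of TYRP1 was 6.36 with DMSO, 9.03 with DT, 6.14 with E and 7.58 with DTE. EDNRB averaged 7.60, 9.18, 7.52 and 7.69 in the same order, and MLANA 4.45, 5.90, 4.03 and 4.76. DTE thus lay between DMSO and DT in these 3 genes, close to DMSO in EDNRB and about midway in TYRP1. BCL2A1 was arranged otherwise, with 7.92, 8.04, 8.22 and 6.68, so that DTE was the lowest of the 4 groups.

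**Figure D2:**
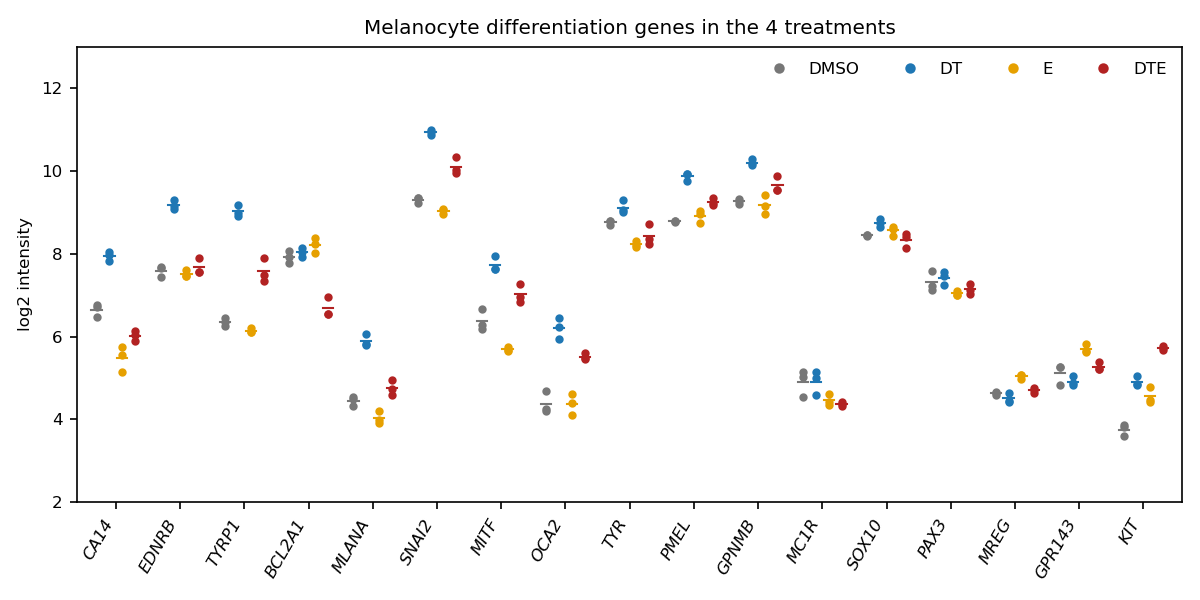
Log2 intensity of the 17 measured melanocyte differentiation genes on each array, in DMSO (grey), DT (blue), E (yellow) and DTE (red), ordered by the change in DTE against DT, with bars at the group means of 3 arrays. In 13 genes, from CA14 to SOX10, DTE is called lower than DT, and in BCL2A1 DTE lies below all 3 other groups.

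Of 18 measured genes of a less differentiated melanoma state 7 rose and 0 were called lower, beside 13.8% and 5.09% of all genes, with a median change of 0.23. On the quantile normalized scale 1 was lower and on the centred scale 2, and 1 was lower without DT replicate 1, E replicate 2 or DTE replicate 3. NGFR, the neural crest stem cell receptor, stood at 6.32, 6.55 and 6.43 in DT and at 7.40, 7.37 and 7.13 in DTE (0.87, SE 0.13, adjusted p = 8.24e-05). ZEB1, a transcription factor of the mesenchymal state, rose by 1.04 and JUN, an AP-1 subunit, by 0.97. AXL, the receptor tyrosine kinase most often used to mark that state, was not called (-0.25, SE 0.14, adjusted p = 0.268), with DT arrays at 9.00, 9.26 and 9.10 and DTE arrays at 9.01, 8.94 and 8.67, which overlap.

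Many genes of the extracellular matrix and of secreted signals rose. In the matrix and integrin list 13 of 20 measured genes rose and 2 fell, beside 13.8% and 5.09% of all genes, with a median of 0.74. VCAN, the proteoglycan versican, rose from 4.74, 5.17 and 4.58 to 6.40, 6.68 and 6.87 (1.82, SE 0.16, adjusted p = 2.99e-07). FBN2, a fibrillin of elastic microfibrils, rose by 1.62 and ADAM19, a membrane metalloprotease, by 1.44. The genes that fell were MMP14, the membrane collagenase that activates other metalloproteases, at 8.30, 8.52 and 8.35 against 7.57, 7.66 and 7.64 (-0.76, SE 0.11, adjusted p = 6.51e-05), and TIMP2, a metalloprotease inhibitor (-0.40, SE 0.11, adjusted p = 0.0123). TIMP2 lost its call without DT replicate 3.

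In the list of growth factors and Wnt inhibitors 15 of 26 rose and 1 fell, with a median of 0.60. Over all genes 13.8% were called higher and 5.09% lower. Besides BMP6 and DKK1, HBEGF, a ligand of the EGF receptor, rose from 3.97, 4.33 and 4.15 to 5.73, 5.69 and 6.20 (1.72, SE 0.15, adjusted p = 2.09e-07). BMP4 rose by 1.45 and PDGFB, a ligand of the PDGF receptors, by 1.40. SFRP1, another secreted Wnt inhibitor, rose by 1.24. The call of the gene that fell, FGF1 (-0.38), was lost without DT replicate 1 or 3, E replicate 3, or DTE replicate 1 or 2. Among cytokines and chemokines 9 of 19 rose and 1 fell. IL18, an inflammasome cytokine, rose by 1.20 and CXCL10, an interferon-induced chemokine, by 0.86, from DT means of 2.77 and 2.93. CCL2, the monocyte chemokine, stood at 6.68, 6.84 and 6.54 in DT and at 6.02, 5.90 and 6.41 in DTE (-0.58, SE 0.18, adjusted p = 0.0289), and its call was lost without DT replicate 1 or 2 and without DTE replicate 1 or 2.

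Of 13 measured YAP target genes 7 rose and 0 were called lower, beside 13.8% and 5.09% of all genes, with a median of 0.48. CCN2, the matricellular factor CTGF, stood at 7.96, 7.97 and 8.04 in DT and at 9.87, 9.85 and 9.87 in DTE (1.87, SE 0.11, adjusted p = 1.73e-09). The spread within each group was at most 0.04 (SD). IGFBP3, a binding protein of insulin-like growth factors, rose by 1.45 and CRIM1, a membrane protein that binds BMPs, by 1.06. With each array centred on its median 7 members of this list were higher and 2 lower.

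Of 33 measured neuronal genes 14 rose and 0 were called lower, beside 13.8% and 5.09% of all genes, with a median of 0.36. On the quantile normalized and centred scales 1 was called lower. After KIF5C and MAP2 the largest rise was in NCAM1, a neural cell adhesion molecule, from 6.06, 6.38 and 6.16 to 7.61, 7.68 and 7.73 (1.47, SE 0.13, adjusted p = 2.69e-07). Of the cadherins and protocadherins 11 of 36 rose and 0 fell. PCDH17 rose by 2.08, PCDH9 by 1.91 and PCDH18 by 1.47. Protocadherins are adhesion proteins known best from neurons. Of the synaptotagmins and their relatives, which act in vesicle fusion, 8 of 21 rose and 0 fell, led by SYT11 (0.95), SYT1 (0.80) and SYT17 (0.77). Of the Wnt receptors and ligands 4 of 13 rose and 0 fell, all of them Frizzled receptors: FZD4 (1.01), FZD7 (0.98), FZD3 (0.88) and FZD6 (0.69).

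**Figure D3:**
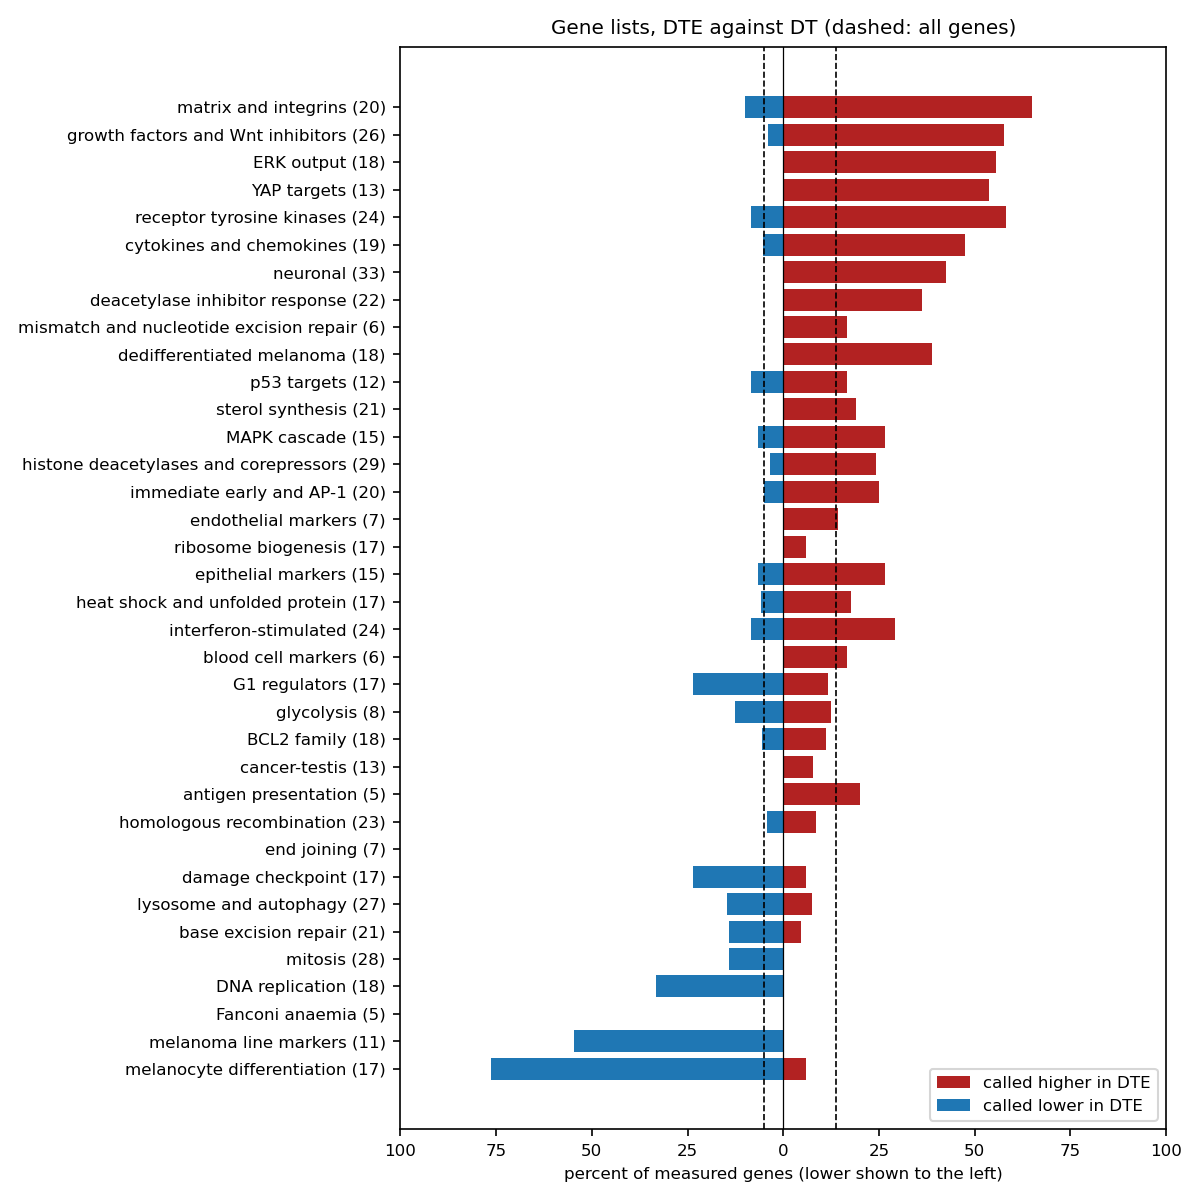
Share of the measured members of each list of named genes, where at least 5 were measured, that were called higher (red, to the right) or lower (blue, to the left) in DTE against DT, in percent, with the number of measured members in brackets and lists ordered by their median change. The dashed lines mark the shares over all genes, 13.8% and 5.09%, and the melanocyte differentiation list stands at the bottom with 13 of 17 members lower.

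ERK output genes, which kinase inhibitors of this kind hold down, rose in part. Of 18 measured members 10 rose in DTE against DT and 0 were called lower, beside 13.8% and 5.09% of all genes, with a median of 0.53. IER3, an early response gene, stood at 7.16, 7.16 and 7.18 in DT and at 9.16, 9.05 and 9.17 in DTE (1.96, SE 0.11, adjusted p = 1.73e-09). SPRY2, which restrains receptor signalling as part of ERK feedback, stood at 3.50, 3.82 and 3.68 against 4.48, 4.57 and 4.51 (0.85, SE 0.11, adjusted p = 2.98e-05). EPHA4, an ephrin receptor, rose by 0.91. CCND1, which encodes cyclin D1, stood at 5.52, 5.60 and 6.08 in DT and at 6.57, 6.54 and 6.50 in DTE (0.80, SE 0.14, adjusted p = 0.000505). MYC rose by 0.44 (SE 0.11, adjusted p = 0.00912), but was not called with each array centred on its median. The feedback phosphatase DUSP6 was not called (-0.36, adjusted p = 0.218), nor was FOSL1, an AP-1 subunit (0.03, SE 0.12, adjusted p = 0.909), nor EGR1, an early response transcription factor (-0.03, adjusted p = 0.939). In each of the following 5 genes DTE stayed below both DMSO and E. IER3 averaged 10.03 in DMSO and 10.70 in E, against 9.13 in DTE, and CXCL8, also in this list, 7.18 and 8.91 against 5.15. SPRY2 averaged 7.91 in DMSO and 7.90 in E, against 4.52 in DTE. CCND1 averaged 9.09 in DMSO and 9.16 in E, against 6.54 in DTE, and FOSL1 9.78 and 9.22 against 5.77. In the MAPK cascade itself 4 of 15 measured genes rose and 1 fell, against 3 and 2 after quantile normalization and 2 and 3 after centring. Only 1 rose without DT replicate 3 and 2 without DTE replicate 2, and the fall was lost without DT replicate 2 or 3 or DTE replicate 2 or 3.

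Cyclin-dependent kinases of G1 moved in opposite directions. CDK6 rose from 6.24, 6.58 and 6.44 to 7.33, 7.69 and 7.54 (1.10, SE 0.15, adjusted p = 2.74e-05). CDK4, its close relative, fell from 9.64, 9.86 and 9.72 to 9.11, 9.07 and 8.95 (-0.70, SE 0.13, adjusted p = 0.000979), and CDK2, the kinase of S phase entry, from 8.94, 9.18 and 9.05 to 8.15, 8.17 and 8.33 (-0.84, SE 0.12, adjusted p = 7.73e-05). In none of the 3 did the groups overlap. Of the 17 measured G1 regulators 2 rose (CDK6 and CCND1) and 4 fell, beside 13.8% and 5.09% of all genes. The others that fell were E2F1 (-0.55) and CCNE2 (-0.51), which encodes cyclin E2. E2F1, a transcription factor of S phase genes, lost its call without DT replicate 3, and CCNE2 lost it without DT replicate 2 or 3 and without DTE replicate 1 or 2.

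Of 24 measured receptor tyrosine kinases 14 rose and 2 fell, beside 13.8% and 5.09% of all genes, with a median of 0.47. KDR, a VEGF receptor, rose by 1.90 from a DT mean of 3.08. ERBB4, a neuregulin receptor, stood at 4.98, 5.25 and 4.85 in DT and at 6.62, 6.84 and 6.91 in DTE (1.76, SE 0.18, adjusted p = 1.42e-06). ROR1, a Wnt-binding receptor, rose by 1.00. ERBB3, a neuregulin receptor of the melanocyte lineage that lacks strong kinase activity of its own, moved the other way, from 7.66, 7.97 and 7.68 to 6.56, 6.79 and 6.71 (-1.08, SE 0.13, adjusted p = 6.88e-06). DDR2, a collagen receptor, was called lower with -0.43 (adjusted p = 0.0405), a call that was lost without any one of the DT arrays, E replicate 3 or DTE replicate 2.

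Genes of DNA replication fell modestly. Of 18 measured members 6 were called lower and 0 higher, beside 5.09% and 13.8% of all genes, with a median of -0.24. After quantile normalization 11 were lower, with a median of -0.32. MCM5, a subunit of the replicative helicase, stood at 6.83, 6.94 and 6.86 in DT and at 6.08, 6.25 and 6.01 in DTE (-0.76, SE 0.12, adjusted p = 0.000212). MCM7, of the same helicase, fell by 0.59 and GINS2, of its GINS cofactor, by 0.54. In the mitosis list 4 of 28 genes were called lower and 0 higher, and 13 were lower after quantile normalization, so this count follows the scale. It was 1 without DT replicate 2, 2 without DT replicate 3 and 1 without DTE replicate 2. SPAG5, a spindle protein, fell by 0.78 and KIF20A, a kinesin of cytokinesis, and PLK1, the mitotic kinase, were at -0.47 and -0.40. Both of the last calls were lost without DT replicate 2, DT replicate 3 or DTE replicate 2, that of KIF20A also without DTE replicate 1, and that of PLK1 also without DT replicate 1 or DTE replicate 3.

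Few DNA repair genes were called as deposited, and the counts of falls moved with the scale. Over all genes 13.8% were called higher and 5.09% lower. Of 23 measured genes of homologous recombination 2 were called higher and 1 lower, with a median of -0.02, and 4 were lower after quantile normalization and 5 after centring. SFR1, a recombination cofactor, stood at 4.81, 4.67 and 4.62 in DT and at 5.71, 5.51 and 5.89 in DTE (1.01, SE 0.15, adjusted p = 0.000112). The gene called lower was PALB2 (-0.38), whose call was lost without DMSO replicate 1, any one of the DT arrays, E replicate 3, or DTE replicate 1 or 2. None of 5 Fanconi anaemia genes and none of 7 end joining genes was called by limma, and 3 of the Fanconi genes were lower after quantile normalization. XRCC6, which encodes Ku70, had a change of -0.05 (adjusted p = 0.813). In base excision repair 1 of 21 rose, the DNA glycosylase NEIL3 (0.73, SE 0.15, adjusted p = 0.00225), and 3 fell, led by the uracil glycosylase UNG (-0.60, SE 0.12, adjusted p = 0.00135). Falls in this list numbered 7 after quantile normalization, 8 after centring, and 1 without DT replicate 2 or DTE replicate 1. PARP1 had a change of 0.08 (adjusted p = 0.748). MGMT, which repairs alkylated guanine, had one of 0.12 (adjusted p = 0.693) at DTE levels of 3.13, 2.79 and 3.23. In the damage checkpoint 1 of 17 rose, ETAA1 (0.64), an activator of ATR, and 4 fell, among them the phosphatase gene CDC25A (-0.57) and the fork protein gene TIMELESS (-0.47). The ETAA1 call was lost without DT replicate 3 and without DTE replicate 3, and either omission left 2 falls in this list, which had 6 after quantile normalization. CHEK1, the checkpoint kinase, was not called (-0.09, SE 0.13, adjusted p = 0.73), with overlapping groups.

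In the BCL2 family 3 of 18 measured genes were called (16.7%), beside 18.9% of all genes. PMAIP1, the proapoptotic BH3-only protein NOXA, rose from 4.55, 4.35 and 4.51 to 5.75, 5.79 and 5.92 (1.35, SE 0.11, adjusted p = 1.63e-07). BCL2A1, which protects melanoma cells from apoptosis, stood at 7.94, 8.15 and 8.05 in DT and at 6.54, 6.54 and 6.96 in DTE (SE 0.14, adjusted p = 1.55e-06). BCL2, the founding antiapoptotic member, rose by 0.71 (SE 0.13, adjusted p = 0.000537). The BH3-only genes BCL2L11, which encodes BIM, and BMF were not called, with 0.06 (adjusted p = 0.86) and 0.12 (adjusted p = 0.59), nor was MCL1 (0.28, adjusted p = 0.136). Of 12 measured p53 target genes 2 rose, PMAIP1 and the stress cytokine gene GDF15 (0.74), and 1 fell, TP53I3 (-0.55). Over all genes 13.8% were called higher and 5.09% lower.

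Interferon-stimulated genes went both ways: 7 of 24 rose and 2 fell, beside 13.8% and 5.09% of all genes. IFI44L rose from 3.34, 3.47 and 3.35 to 4.71, 4.86 and 5.15 (1.52, SE 0.13, adjusted p = 2.08e-07), and HERC6, a ubiquitin ligase, by 1.18. IRF9, the DNA-binding subunit of the interferon response factor ISGF3, fell from 5.35, 5.66 and 5.45 to 4.95, 4.67 and 4.69 (-0.71, SE 0.14, adjusted p = 0.00128), and MX2, an antiviral GTPase, fell by 0.63. Of 5 measured antigen presentation genes 1 was called, the trimming peptidase gene ERAP1 (0.39), which was not called after quantile normalization and was lost without 7 of the 12 arrays in turn. CD274, which encodes the checkpoint ligand PD-L1 and was singled out after its values were seen, stood at 2.95, 3.66 and 3.31 in DT and at 5.25, 5.50 and 5.71 in DTE (2.18, SE 0.16, adjusted p = 4.03e-08). Its mean was 4.88 in DMSO and 6.72 in E.

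Of the histone deacetylases and their corepressors 7 of 29 measured genes rose and 1 fell, with a median of 0.12. Over all genes 13.8% were called higher and 5.09% lower. Among the class I enzymes that entinostat inhibits, HDAC1 was not called (0.32, SE 0.12, adjusted p = 0.0732), HDAC2 rose by 0.58 (SE 0.15, adjusted p = 0.0101) and HDAC3 by 0.38 (SE 0.12, adjusted p = 0.034). The HDAC2 call was lost without DTE replicate 3, and that of HDAC3 after quantile normalization (0.27, adjusted p = 0.1) and without DT replicate 1 or 3 or DTE replicate 1 or 2. HDAC9, a class II enzyme, rose by 0.87. The gene that fell was CHD3, an ATPase of the NuRD corepressor complex, at 8.77, 9.01 and 8.84 in DT and 7.60, 7.67 and 7.80 in DTE (-1.18, SE 0.11, adjusted p = 7.11e-07). Of 22 measured genes known to respond to deacetylase inhibitors 8 rose and 0 were called lower. SAT1, the enzyme that acetylates polyamines, rose by 1.79, HSPA2, a heat shock protein, by 1.39 and DHRS2, a dehydrogenase, from 4.23, 4.18 and 4.28 to 5.37, 5.35 and 5.29 (1.11, SE 0.11, adjusted p = 1.02e-06).

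Among housekeeping and metabolic families, read beside the 18.9% of all genes called either way, 3 of 48 measured ribosomal protein genes rose and 0 fell, with 1 and 1 after quantile normalization 1 rise without DT replicate 1 or DTE replicate 2 or 3, and 5 without DTE replicate 1. Of 30 oxidative phosphorylation genes 1 rose and 1 fell, with 1 and 4 after quantile normalization. Mitochondrial ribosomal protein genes had 2 rises and 6 falls among 77, 1 and 19 on the quantile normalized scale and 0 and 27 on the centred one. Their falls numbered 4 without DT replicate 1, 3 without DT replicate 2, 2 without DT replicate 3 or DTE replicate 1, and 1 without DTE replicate 2. Of 8 glycolysis genes 1 rose and 1 fell. In sterol synthesis 4 of 21 rose and 0 fell, with 3 falls after quantile normalization and 4 after centring, and the rises were led by STARD4, a cholesterol carrier (1.09), and MYLIP, which degrades the LDL receptor (0.83), while HMGCS1, an enzyme of the mevalonate pathway, was at 0.08 (adjusted p = 0.744). Of 27 lysosome and autophagy genes 2 rose and 4 fell (8 after quantile normalization and 9 after centring), among them HEXA (-0.65), a lysosomal hexosaminidase, and MCOLN1 (-0.61), a lysosomal calcium channel. Zinc finger genes of the ZNF series, a large family of mostly repressive DNA-binding proteins, had 51 rises and 16 falls among 484, beside 13.8% and 5.09% of all genes. The balance turned with the scale, to 37 and 56 after quantile normalization and 23 and 65 after centring. Rises of this family numbered 33 without DT replicate 3 and 29 without DTE replicate 3, and falls 10 without DT replicate 1 or 2. In the HOX clusters 6 of 33 transcripts rose and 1 fell, led by HOXA2 (1.15), with 4 and 3 after quantile normalization and 3 and 3 after centring. Of 106 transcription factor genes and antisense transcripts of the SOX, FOX, PAX, LHX, TBX and GATA families 12 rose and 5 fell as deposited, against 11 and 17 after quantile normalization and 7 and 18 after centring, and 3 fell without DT replicate 2 or 3. GATA6 rose by 1.26 and FOXD3, a neural crest factor, fell by 0.92. Cancer-testis antigens, often silent through DNA methylation, had 1 rise among 13.

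Among non-coding transcripts 23 of 484 antisense transcripts were called higher and 18 lower, and 22 of 454 long intergenic ones were higher and 6 lower, beside the 18.9% of all genes called either way. Falls outnumbered rises on the other scales, with 17 higher and 47 lower antisense transcripts after quantile normalization and 12 and 54 after centring, and 18 and 23, then 11 and 43, for the long intergenic ones. Antisense rises numbered 14 without DT replicate 1 and 15 without DT replicate 3, and antisense falls 10 without DTE replicate 2. Long intergenic rises numbered 12 without DT replicate 1, 11 without DT replicate 3 and 10 without DTE replicate 3. LINC00052 rose by 2.04, and SPART-AS1 stood at 4.39, 4.45 and 4.02 in DT and at 2.63, 2.62 and 2.59 in DTE, which is below the lower quartile. Of 1042 microRNA loci by symbol 30 were called higher and 13 lower, against 27 and 35 after quantile normalization and 16 and 62 after centring, and 19 were higher without DT replicate 1. Of the 1018 annotated as microRNA genes 637 had a DT mean below the lower quartile. These probe sets report the transcript of the locus, which can include the host gene, and not the mature microRNA.

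At 2 loci of the miR-181 family, the miR-181b hairpin and its host transcript rose together on chromosome 1 and fell together on chromosome 9. Both loci encode the same miR-181b-5p and the same miR-181a-5p, and all share the seed, bases 2 to 8, which is in capitals. The RefSeq mature sequences, 5′ to 3′, are given because the miR-181b hairpins with an identical product moved apart. MIR181B1 encodes miR-181b-5p at chr1:198858925-198858947 (minus strand) and MIR181B2 at chr9:124693725-124693747 (plus strand), while MIR181A1 and MIR181A2 encode miR-181a-5p at chr1:198859108-198859130 and chr9:124692480-124692502 (GRCh38.p14). MIR21, of another seed, is given as the most studied microRNA among those called (chr17:59841273-59841294, plus strand).
miR-181b-5p: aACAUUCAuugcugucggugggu
miR-181a-5p: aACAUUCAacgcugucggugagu
miR-21-5p: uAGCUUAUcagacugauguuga

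On chromosome 1, MIR181B1 stood at 5.62, 5.95 and 5.17 in DT and at 6.60, 6.62 and 7.24 in DTE (1.24, SE 0.23, adjusted p = 0.000678). Its host transcript MIR181A1HG stood at 5.60, 5.87 and 5.68 against 6.27, 6.86 and 6.91 (0.97, SE 0.16, adjusted p = 0.00023). On chromosome 9, MIR181B2 stood at 4.49, 4.24 and 3.92 in DT and at 3.17, 3.11 and 3.46 in DTE (-0.97, SE 0.21, adjusted p = 0.00311). The host MIR181A2HG fell with it, from 4.93, 4.84 and 4.60 to 3.97, 4.03 and 3.75 (-0.87, SE 0.20, adjusted p = 0.00352). The miR-181b hairpin moved the same way as the host at each locus, and the groups did not overlap in any of these 4 transcripts. MIR181A1 rose by 0.52 at levels below the lower quartile in both groups (DTE mean 2.49), a call lost without DTE replicate 3, and MIR181A2 had a change of 0.00 with overlapping arrays. MIR181A1, MIR181A2 and both host transcripts were picked after their values were seen. MIR21 rose from 5.11, 5.36 and 5.18 to 6.05, 6.33 and 6.52 (1.08, SE 0.15, adjusted p = 3.84e-05), while VMP1, the gene it overlaps, was not called (0.25, adjusted p = 0.196). MIR4534 stood at 8.72, 8.76 and 8.06 in DT and at 7.20, 7.08 and 7.17 in DTE (SE 0.19, adjusted p = 3.84e-05), and POLR2F, an RNA polymerase subunit gene that overlaps it, had a change of -0.47 (adjusted p = 0.0148), a call lost without DT replicate 1 or 2.

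**Figure D4:**
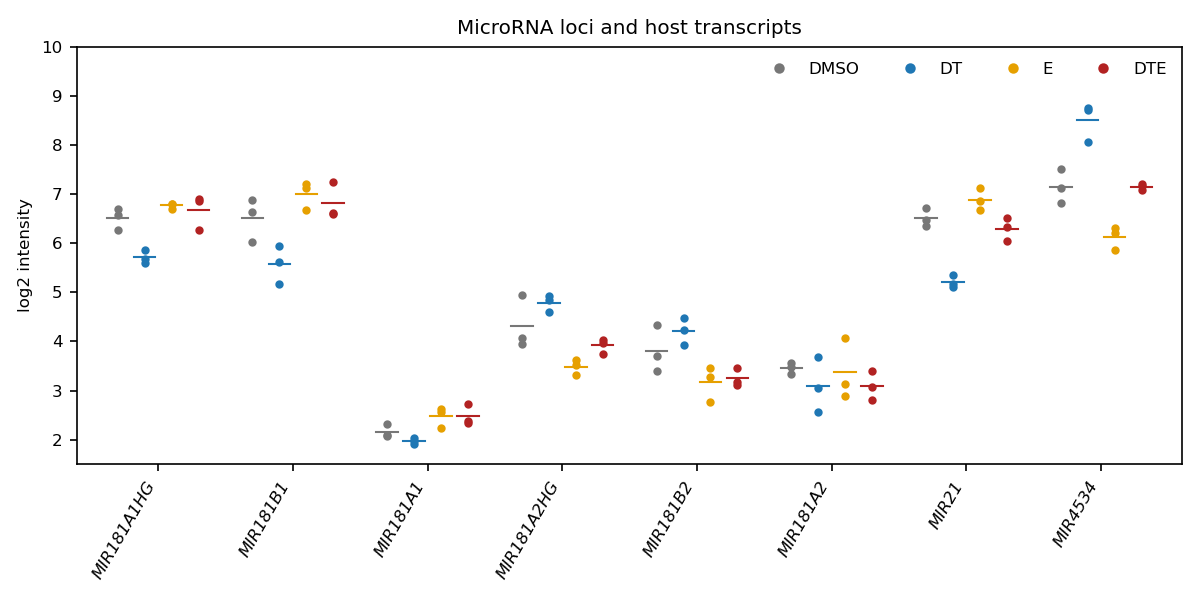
Log2 intensity of the miR-181 hairpins and host transcripts, MIR21 and MIR4534 on each array of DMSO (grey), DT (blue), E (yellow) and DTE (red), with bars at the means of 3 arrays. MIR181A1HG and MIR181B1 are higher in DTE than in DT, and MIR181A2HG and MIR181B2 are lower.

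Entinostat without the kinase inhibitors gave a second measurement of its effect, on arrays other than those of DT and DTE. The calls of both comparisons used the same estimate of the spread of each gene, so the overlap of calls is not between independent tests. In E against DMSO 1825 genes were higher (12.5%) and 516 lower (3.54%), the latter 303 without DMSO replicate 2. Of the 2014 genes higher in DTE than in DT, 1172 were also higher in E than in DMSO, which is 58.2% of the first list and 64.2% of the second. Of the 742 lower genes 266 were also lower in E (35.8% and 51.6%). Opposite calls were few: 10 genes were higher on top of the kinase inhibitors and lower without them, and 7 the reverse. Over all 14580 genes the log2 changes had a Pearson r of 0.685 and a Spearman rho of 0.534, and genes are not independent replicates. KIF5C rose by 2.88 with the inhibitors and by 3.01 without, and ANKRD1 by 3.73 and 3.06. MEPCE fell by 1.20 with the inhibitors, and had a called change of -1.24 without.

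The difference between the 2 effects was tested by the interaction term, which is the change in DTE against DT less the change in E against DMSO. It was called for 151 genes (1.04%), 82 positive (0.562%) and 69 negative (0.473%), and on the quantile normalized scale for 174 (1.19%) and 140 (0.96%). The positive count fell to 49 without DMSO replicate 2, 46 without DT replicate 1, 47 without DT replicate 3, 49 without E replicate 3 and 54 without DTE replicate 2 or 3. The negative count fell to 43 without DMSO replicate 1, DT replicate 2 or E replicate 1, to 36 without DMSO replicate 3 and to 44 without E replicate 3. Among the 82 positive genes 41 were called higher in DTE against DT and not called in E against DMSO. Another 25 were higher in both, and 10 were higher with the inhibitors and lower without. Among the 69 negative genes 28 were lower with the inhibitors and not called without, 24 were higher in E alone and not called with the inhibitors, and 7 were lower with the inhibitors and higher without.

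The largest positive terms belonged to SMAGP, a small adhesion-associated membrane protein (1.55, adjusted p = 0.000614), DKK1 (1.54, adjusted p = 0.000976), PMP2, a myelin lipid carrier (1.53, adjusted p = 0.00259), LRP2 (1.48, adjusted p = 0.000196) and RGCC (1.33, adjusted p = 0.0108). SMAGP stood at 6.09, 5.85 and 5.66 in DT and at 6.91, 6.85 and 7.07 in DTE, a rise of 1.07, while E against DMSO gave -0.47. DKK1 averaged 7.61 with DMSO and 8.46 with E, and 5.74 with DT and 8.13 with DTE. LRP2 started from like levels (2.72 in DMSO and 2.57 in DT) and reached 4.41 in E and 5.73 in DTE. PMP2 rose by 1.96 from a DT mean of 2.95 and was not called in E (0.43, adjusted p = 0.094).

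The largest negative terms were in TP53INP2 (-1.74, adjusted p = 0.000112), BCL2A1 (-1.67, adjusted p = 0.000489), ASPA, the enzyme aspartoacylase (-1.52, adjusted p = 0.00787), RAP1GAP, which turns off the GTPase RAP1 (-1.49, adjusted p = 0.000614), and CD24, a surface glycoprotein with near-identical gene copies that make its reading uncertain (-1.44, adjusted p = 0.00183). TP53INP2 stood at 8.35, 8.47 and 8.21 in DT and at 7.24, 7.21 and 7.02 in DTE, and rose by 0.56 in E. BCL2A1 had a change of 0.30 in E that was not called (adjusted p = 0.17). CD24 rose in both settings, from a DT mean of 6.77 to 8.56, 8.87 and 8.93 with the inhibitors (2.01) and by 3.45 without, and its group means were 3.93 with DMSO, 6.77 with DT, 7.39 with E and 8.79 with DTE. IL24 likewise rose by 2.48 with the inhibitors and by 3.80 without (interaction -1.32, adjusted p = 0.0146), a term not called after quantile normalization (-1.12, adjusted p = 0.0531).

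Several genes described above had a called term, beside 0.562% of all genes with a positive and 0.473% with a negative one. In the melanocyte list 4 of 17 were negative: BCL2A1, EDNRB (-1.41, adjusted p = 0.000614), TYRP1 (-1.24, adjusted p = 0.00309) and PMEL (-0.74, adjusted p = 0.0345), none of which was called lower in E against DMSO. MITF had a term of -0.03 (adjusted p = 0.977), with falls of similar size in both settings. In the ERK output list 3 of 18 were positive: IER3 (1.29, adjusted p = 0.0006), EPHA4 (1.25, adjusted p = 0.00631) and SPRY2 (0.87, adjusted p = 0.0108). PMAIP1 was positive too (1.11, adjusted p = 0.00183), and its means were 7.16 with DMSO, 4.47 with DT, 7.40 with E and 5.82 with DTE. CDK6 (0.95), A2M (1.30), CRIM1 (0.83) and ADAM19 (0.95) were also positive, and GALNT3 (-1.43) and MAP3K11 (-0.82) negative. The term of PMEL kept its call in 3 of the 12 fits that left out an array, that of CDK6 in 4, that of MAP3K11 in 1 and that of CRIM1 in 10, the exceptions for CRIM1 being DT replicates 1 and 3. The other terms given here and for the largest positive and negative genes stayed called in all 12. CHEK1 was not called in the interaction (0.76, adjusted p = 0.0558), though it was called lower in E against DMSO with -0.85 (adjusted p = 0.00016).

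**Figure D5:**
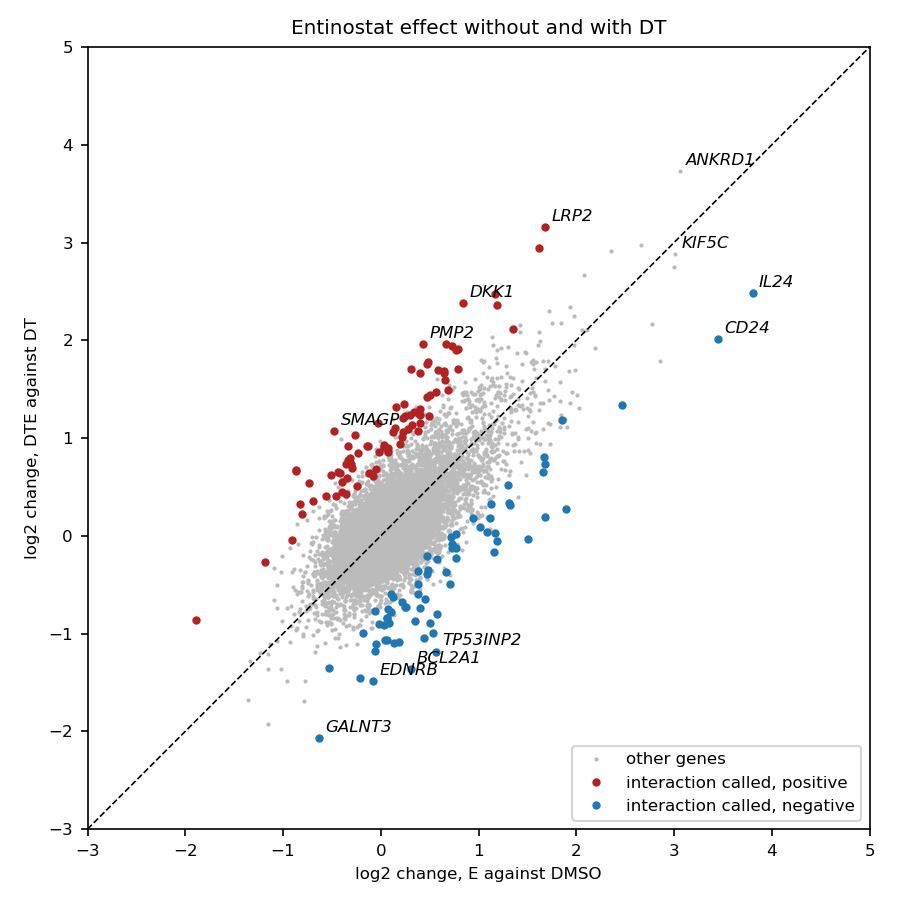
Log2 change of each of the 14580 genes in E against DMSO (horizontal) and in DTE against DT (vertical), with genes whose interaction was called positive in red and negative in blue, and the line of equal change dashed. KIF5C and ANKRD1 rise strongly on both axes, while DKK1 and LRP2 lie above the line and TP53INP2 and EDNRB below. Of the 399 genes called at least 2-fold higher in DTE against DT, 206 were so in E against DMSO. Of the 37 called at least 2-fold lower, 9 were.

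Markers of other cell types were read for signs of a changed makeup, although the culture is a single line. Over all genes 13.8% were called higher and 5.09% lower. The summed intensity of the 4 measured fibroblast markers was between 214 and 276 on the DT arrays and between 471 and 632 on the DTE arrays, and 3 of the 4 were called higher: LUM (1.34), DCN (0.67) and THY1 (0.53), the last not called after quantile normalization or without DT replicate 1 or 2 or DTE replicate 2. LUM and DCN are themselves in the matrix list, and DCN stood at a DTE mean of 2.61, below the lower quartile. Of 15 epithelial markers 4 were higher and 1 lower, against 3 and 2 after quantile normalization and 2 and 2 after centring, and 2 were higher without DT replicate 3 or DTE replicate 1 or 3. The marker called lower, ESRP1, lost its call without DT replicate 2 or DTE replicate 1 or 2. The epithelial markers had sums of 320 to 392 in DT and 547 to 579 in DTE. DSP, the desmosomal protein desmoplakin (7.32 to 8.40), made up a large part of the sum. EPCAM, the defining epithelial adhesion molecule, averaged 2.93 in DT and 3.41 in DTE. Of 7 endothelial markers KDR alone was called, with VWF, the defining clotting factor, at 2.50 and 2.65, and of 6 blood cell markers 1 was called, LYZ, which was not called after quantile normalization or without DT replicate 1 or 3 or DTE replicate 3. The lowest deposited intensity of any probe set was 1.88, so no marker could be listed at 0. The part of these markers in the results was not tested.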

How the data were processed

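The authors' deposited values are intensities on a linear scale, 1 for each probe set of each array, from 1.88 to 8728. RMA and the Transcriptome Analysis Console are named in the submitters' processing notes, without versions. The array medians differ, and no source used here states any scaling after RMA. Of 29396 probe sets 14748 carried 1 symbol in the platform annotation, updated by NCBI gene identifier, and 14648 carried none. The probe set with the highest mean stood for a gene, which gave 14580 genes.

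Values were converted to log2, and limma 3.58.1 (R 4.3.3) fitted the means of the 4 groups over all 12 arrays, with 8 residual degrees of freedom and eBayes. The contrasts were DTE minus DT, E minus DMSO and their difference. P-values were adjusted by Benjamini-Hochberg over all genes and called under 0.05. No filter on dim genes was applied. With 3 arrays per group, the number of arrays limits the precision. The fit was tested on simulated data.

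Named genes were the 15 largest rises and 15 largest falls among called genes whose groups do not overlap and whose higher group reaches the median level. Also named were the 5 largest called interaction terms each way, under the condition on the median level but not that on overlap. At most 3 called genes in each direction from a list were named, and 31 genes whatever their result, of which 25 were measured. Some genes that this rule names are not reported here. The members and the 67 gene lists, 65 of them with a measured member, were chosen with earlier results of these data known. BMP4, CCNE2, CD274, CRIM1, DHRS2, EGR1, EPCAM, FZD6, HMGCS1, MIR21, PDGFB, PLK1, POLR2F, SFRP1, SNAI2, VMP1, VWF, the remaining melanocyte genes and the miR-181 transcripts other than those the rule gives were named after their values were seen. Promoter and microRNA sequences came from RefSeq (GRCh38.p14) and the sources used here give no build for the arrays. Alternatives were quantile normalization, median centring, a replicate block, an intensity trend, other probe set rules, no dim genes, only the DT and DTE arrays, and leaving out each array. Same-numbered DTE and DT arrays did not deviate together (correlations of deviations 0.048, -0.023 and -0.097). For same-numbered arrays of the other pairs of groups these correlations were all positive, from 0.004 to 0.172.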

Additional observations from a re-analysis of the deposited data

Results flagged for a closer look

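In these genes the effect of entinostat differed between cells with and without dabrafenib plus trametinib by the test of the difference itself, the interaction term of the limma fit, and each value is that term on the log2 scale. It was positive for SMAGP (1.55), DKK1 (1.54), PMP2 (1.53), LRP2 (1.48), RGCC (1.33), A2M (1.30), IER3 (1.29), EPHA4 (1.25), HOXA2 (1.18), EXPH5 (1.17), PCDH9 (1.11), PMAIP1 (1.11), CDK6 (0.95), ADAM19 (0.95), SPRY2 (0.87), SFRP1 (0.85) and CRIM1 (0.83). It was negative for PMEL (-0.74), MAP3K11 (-0.82), TYRP1 (-1.24), IL24 (-1.32), EDNRB (-1.41), GALNT3 (-1.43), CD24 (-1.44), RAP1GAP (-1.49), ASPA (-1.52), BCL2A1 (-1.67) and TP53INP2 (-1.74).

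The change behind the term took several forms. SPRY2 moved by 0.85 with the kinase inhibitors and by -0.01 without, and HOXA2 by 1.15 and -0.03. EXPH5 rose in both settings, by 2.36 and 1.19, as did PCDH9, by 1.91 and 0.79. RAP1GAP went from called lower with the inhibitors (-1.05) to called higher without (0.44), and GALNT3 was called lower in both (-2.07 and -0.64). ASPA was called lower with the inhibitors (-0.99) and was at 0.53 without, which was not called.

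SFRP1 and MAP3K11 stayed called in 1 of the 12 fits that left out an array, PMEL in 3, CDK6 in 4, PCDH9 in 7 and CRIM1 in 10. The other 22 terms stayed called in all 12. After quantile normalization the term of IL24 was not called (-1.12, adjusted p = 0.0531).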

How the results depend on the processing

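Counts of calls moved by over 1.5 times under these alternatives. Genes lower in DTE than in DT numbered 1752 after quantile normalization and 2245 after median centring, in place of 742, and 473 (without DT replicate 2) to 777 when single arrays were left out. Genes at least 2-fold higher numbered 252 after centring, and at least 2-fold lower 74 after quantile normalization and 89 after centring. With all probe sets tested, named or not, 3132 were higher, 651 of them at least 2-fold, and 77 were at least 2-fold lower, over more features tested. Positive interaction terms numbered 174 after quantile normalization, 160 after centring, 129 with an intensity trend and 46 to 108 without single arrays, and negative ones 140, 107 after centring and 36 to 69. In E against DMSO 1098 genes were higher after centring, and 1232 were lower after quantile normalization, 2372 after centring and 303 (without DMSO replicate 2) to 580 without single arrays. The cause was not tested. Of the original calls, 1745 higher and 742 lower genes kept theirs after quantile normalization. The replicate block gave 2197 higher and 815 lower. The block moved no count of calls for DTE against DT by over 1.5 times. Replicate 2 had the highest array median in each of the 4 groups. Whether the replicate numbers pair the arrays was examined only by the correlations of deviations given above, without a test.

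Changes that turned sign were called under none of these alternatives. BCL2L11 was at -0.054 after quantile normalization, -0.11 after centring and -0.035 to 0.18 when single arrays were left out. FOSL1 was at -0.096, -0.15 and -0.060 to 0.14 in the same order, and MIR181A2 at -0.091, -0.17 and -0.27 to 0.29. HMGCS1 was at -0.014 after quantile normalization and -0.093 after centring. After centring BMF was at -0.053, PARP1 at -0.097, MGMT at -0.060 and VWF at -0.026. Without single arrays CHEK1 ranged from -0.22 to 0.044, XRCC6 from -0.11 to 0.033 and EGR1 from -0.18 to 0.18. No detection value per probe set was used here, so changes of dim genes are limited by an unknown floor.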
